A study of Homo sapiens with 9 samples.

Results

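The genes described are the Wnt ligands, their receptors and the mediators that carry the signal into the cell. They were taken by name from the count table: every gene named WNT followed by its number and letter (19 ligands), every gene named FZD followed by its number (10 frizzled receptors), and 20 genes listed one by one. These 49 genes are among 59453 gene names in the table, and 36 of them passed the expression filter. Gene expression was measured by RNA-Seq in MDA-MB-231, an established human triple-negative breast cancer (TNBC) line, in 3 groups of 3 libraries: untreated cells, cells given TEPA for 8 h and cells given TEPA for 24 h. TEPA is a polyamine that chelates copper. The sample labels put it at 8 mM and the sequencing methods at 4 mM, so the dose behind these libraries is not settled. One untreated group served both times, so time with TEPA and time in culture cannot be told apart. Every library came from the same cell line, and the labels do not say whether replicates were separate cultures. The p-values therefore measure only the spread between these libraries, which may be technical. Each library held between 34633755 and 49342659 counts. Untreated replicate 1 stood a little apart from its group, and where a call rests on it the value without it is given.

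Wnt proteins are secreted, lipid-modified signals. PORCN attaches the lipid, WLS carries the ligand to the cell surface, and outside the cell the ligand binds a frizzled receptor together with the co-receptors LRP5 and LRP6. In the canonical branch, dishevelled proteins then disarm the destruction complex of APC, AXIN1, AXIN2 and GSK3B, so that β-catenin, encoded by CTNNB1, reaches the nucleus and acts with the TCF/LEF factors. Other branches run through ROR1, RYK and the planar cell polarity genes without β-catenin. In breast epithelium Wnt signals take part in the upkeep of mammary stem cells, and the question put to these libraries was whether copper chelation changes the expression of the pathway.

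The start regions of 4 members are shown because their expression is described below and because they differ in whether they hold the letters that TCF/LEF factors read. The search covered the form CTTTGAA, the form CTTTGAT, the form CTTTGTA and the form CTTTGTT, on both strands, of the RefSeq promoters of build GRCh38.p14, which run from 250 bases before to 50 bases after the gene's start. Capitals mark a match, and the sequences read 5′ to 3′ on the gene's own strand. DKK1, at chr10:52314031-52314330 on the plus strand, holds 2 matches. WNT3, at chr17:46818643-46818942 on the minus strand, holds 1. LRP5, at chr11:68312341-68312640 on the plus strand, and WNT9A, at chr1:227947883-227948182 on the minus strand, hold none.
DKK1: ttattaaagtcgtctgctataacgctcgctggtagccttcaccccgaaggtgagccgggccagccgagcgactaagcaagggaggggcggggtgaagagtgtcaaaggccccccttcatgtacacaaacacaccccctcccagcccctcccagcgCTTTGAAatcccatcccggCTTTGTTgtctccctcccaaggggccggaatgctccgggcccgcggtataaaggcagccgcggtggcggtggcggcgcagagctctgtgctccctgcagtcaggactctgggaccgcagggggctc
WNT3: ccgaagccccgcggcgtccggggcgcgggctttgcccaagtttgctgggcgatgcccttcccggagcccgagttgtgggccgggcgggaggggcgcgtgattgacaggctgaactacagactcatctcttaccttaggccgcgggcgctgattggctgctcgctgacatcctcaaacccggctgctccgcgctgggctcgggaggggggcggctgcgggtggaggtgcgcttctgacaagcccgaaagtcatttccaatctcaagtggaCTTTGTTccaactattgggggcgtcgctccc
LRP5: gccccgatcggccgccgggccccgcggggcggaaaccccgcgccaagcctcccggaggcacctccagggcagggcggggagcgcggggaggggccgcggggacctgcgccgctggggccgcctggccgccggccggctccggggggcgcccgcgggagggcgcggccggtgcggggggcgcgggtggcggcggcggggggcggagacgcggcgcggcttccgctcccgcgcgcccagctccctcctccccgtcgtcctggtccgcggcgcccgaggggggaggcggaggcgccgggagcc
WNT9A: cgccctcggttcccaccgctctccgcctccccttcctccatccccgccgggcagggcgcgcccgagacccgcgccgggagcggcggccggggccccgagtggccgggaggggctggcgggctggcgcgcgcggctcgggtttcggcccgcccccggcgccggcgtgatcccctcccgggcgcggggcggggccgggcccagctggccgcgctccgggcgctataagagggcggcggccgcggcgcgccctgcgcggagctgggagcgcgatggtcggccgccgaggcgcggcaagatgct

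The DKK1 matches begin 95 and 76 bases before the start, and the WNT3 match begins 19 bases after it. A promoter was found for 38 of the 49 members, and 4 of them held the letters in at least 1 promoter: DKK1, WNT3, TCF7 and TCF7L2. That is 10.5% of the members matched, or 8.51% of their 47 promoters, beside 13.8% of all 35116 promoters of the same length. The start regions of LRP5 and WNT9A are rich in G and C, at 86.7% and 83.0%, above the median of 69% over the members' promoters and 58.7% over all promoters. A match is a run of letters and not a measured binding site.

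Of the 49 members, 13 were too low to test. They comprised 11 ligands and the receptors FZD9 and FZD10, and no library held more than 6 counts of any of them, a value reached by WNT11. WNT2, WNT7A, WNT8A, WNT8B and FZD10 had no count in any library. A limit of 3 counts corresponds to 0.0866 CPM (counts scaled to the size of the library) in the shallowest library and 0.0608 CPM in the deepest, and covers counting error only. The 36 members that were tested had at least 10 counts in every library.

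Of the 8 tested ligands, 4 have a close Wnt neighbor among the genes too low to test. By their annotated GENCODE extents, WNT9A and WNT3A lie 59.1 kb apart on chromosome 1, WNT10B and WNT1 lie 6.59 kb apart on chromosome 12, WNT6 and WNT10A lie 6.62 kb apart on chromosome 2, and WNT3 and WNT9B lie 46 bases apart on chromosome 17. The RefSeq start of WNT3 shown above lies inside its extent, so the starts of that pair are farther apart than the extents. In each of these 4 pairs 1 gene was tested and the other was among the 13.

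Levels can be set against each other between genes only per length, and here they are given as TPM (counts scaled to summed exon length and then to the library). In untreated cells the median over the 36 tested members was 16 TPM, or 17.52 TPM with the longest transcript as the length. By summed exon length LRP5 was highest at 231 TPM ± 49.5 (SD, n = 3), followed by DVL1, CTNNB1, DKK1, FZD2 and DVL2. WNT2B was lowest at 0.129 TPM. Every ligand stood below the receptors FZD2, FZD6, FZD8 and FZD7: WNT7B led with 22.3 TPM, then came WNT5B at 15.7, WNT9A at 14.2, WNT5A at 14.1 and WNT3 at 12.3. With the longest transcript as the length, WNT5B (21.2 TPM) came before WNT7B (20.5 TPM). By that length CTNNB1 (256 TPM) came before LRP5 (197 TPM), and DVL2 (150 TPM) before DVL1 (139 TPM). The order at the top of the members and of the ligands thus depends on the transcript chosen.

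At 8 h, 15 of the 36 tested members were lower and 8 higher than in untreated cells, by edgeR's quasi-likelihood test with a threshold of 0.05 on the false discovery rate (FDR, the p adjusted over the 16556 genes tested). The same test called 24.5% of all genes lower and 25.2% higher, so that 49.6% of the transcriptome was called, beside 63.9% of the members. At 24 h, 15 members were lower and 6 higher, beside 26.8% and 25.7% of all genes (52.5% in all, against 58.3% of the members). The study's text names 7 of the tested members from these same libraries, given below. Among the other 29, 10 (34.5%) were lower and 8 (27.6%) higher at 8 h, and 8 (27.6%) lower and 6 (20.7%) higher at 24 h. Over the tested members the median log2 fold change at 8 h was −0.15 and at 24 h −0.10, and over all genes it was −0.001 and 0.002. Over those 29 members it was −0.11 and −0.03. The libraries of 17 members lay wholly below and those of 8 wholly above the untreated ones at 8 h, beside 28.6% and 29.2% of all genes, and at 24 h these were 14 and 7, beside 28.9% and 28.4%. Most changes were small. Beyond a log2 fold change of 0.5, 4 members were lower and 3 higher at 8 h, beside 7.67% and 10.1% of all genes, and 4 were lower and 1 higher at 24 h, beside 8.46% and 10.2%. In bulk RNA a fall can come from fewer cells that use a gene or from less RNA per cell, and the 2 cannot be told apart.

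**Figure D1:**
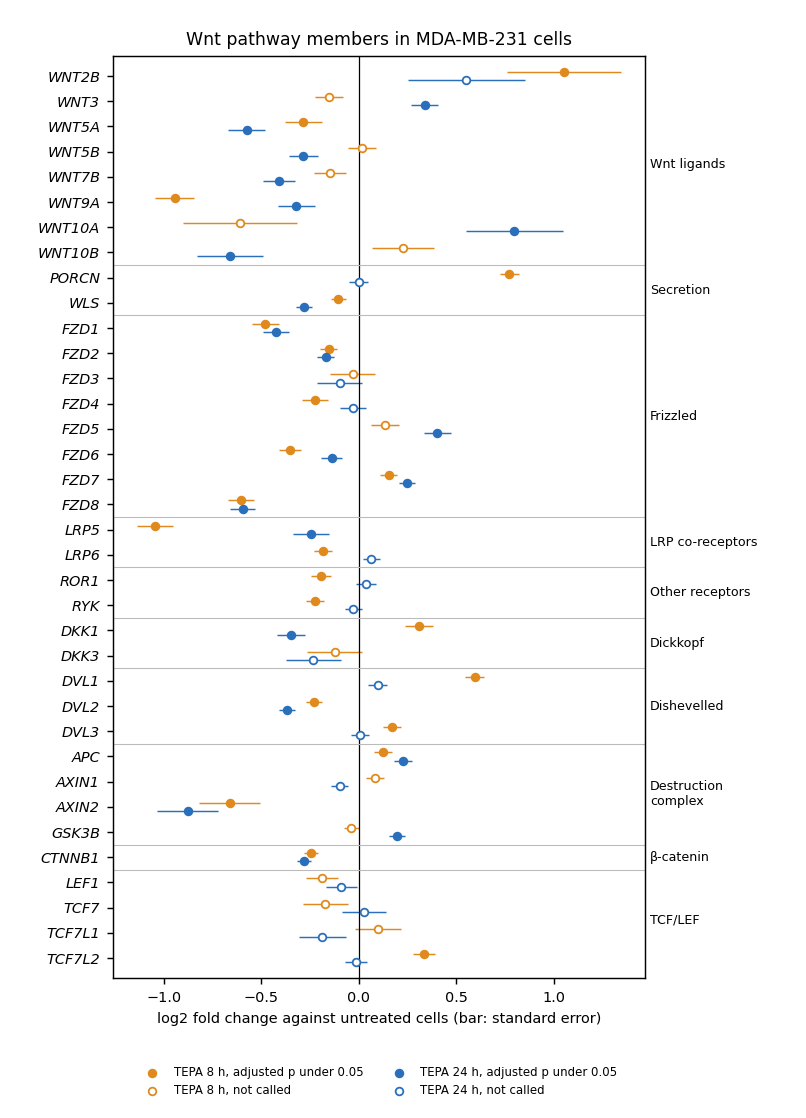
Log2 fold change of each of the 36 tested members at 8 h (orange) and 24 h (blue) of TEPA against untreated cells, with genes in rows by role and bars for the standard error; filled points have an FDR under 0.05. LRP5 and WNT9A lie farthest left at 8 h, PORCN and DVL1 are to the right at 8 h and near 0 at 24 h, and FZD8, AXIN2 and CTNNB1 are on the left at both times.

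Ligands were called more often at 24 h than at 8 h, a difference in counts that was not itself tested. At 8 h, 2 of the 8 tested ligands were lower and 1 was higher, and at 24 h 5 were lower and 2 higher, beside 24.5% and 25.2% of all genes at 8 h and 26.8% and 25.7% at 24 h. WNT9A, a ligand with roles in joint and limb development, measured 12.6, 14.7 and 15.8 CPM in untreated cells, 6.52, 8.08 and 7.84 CPM at 8 h, and 12.3, 11.3 and 11.0 CPM at 24 h. The 8 h libraries lay well below both other groups, and the 24 h libraries lay just under the lowest untreated one. The log2 fold change was −0.94 (SE 0.099, FDR = 1.4e-06) at 8 h and −0.32 (FDR = 0.0089) at 24 h, and the latter call was lost without untreated replicate 3 (−0.25, FDR = 0.058).

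WNT5A, the main ligand of the β-catenin-independent branches, measured 29.0, 22.0 and 25.1 CPM in untreated cells, 19.7, 21.6 and 21.1 CPM at 8 h, and 15.0, 17.0 and 19.2 CPM at 24 h. The groups did not overlap, although the nearest libraries lay close together. Its log2 fold change was −0.28 (SE 0.095, FDR = 0.021) at 8 h and −0.58 (SE 0.096, FDR = 1.1e-04) at 24 h. The first of these was not called without untreated replicate 1 (−0.18, FDR = 0.095) or TEPA 8 h replicate 1 (−0.25, FDR = 0.076). WNT5B, its close paralog, stayed near its untreated level at 8 h (log2 fold change 0.02, FDR = 0.86) and was lower at 24 h (−0.28, FDR = 0.0038).

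WNT3, a canonical ligand, ran the other way at 24 h. It measured 18.2, 15.0 and 16.5 CPM in untreated cells and 15.2, 14.4 and 15.0 CPM at 8 h, which overlap, and then 21.3, 20.5 and 20.9 CPM at 24 h, above every other library. The log2 fold change at 24 h was 0.34 (SE 0.068, FDR = 6.4e-04) against untreated cells and 0.49 (FDR = 2.1e-05) against 8 h. At 8 h it was −0.15 (FDR = 0.083), and it passed the threshold when untreated replicate 2 was left out (−0.23, FDR = 0.012).

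WNT10A and WNT10B, paralogs on separate chromosomes, moved in opposite directions between 8 h and 24 h. WNT10B measured 2.64, 3.06 and 3.58 CPM in untreated cells, 4.10, 3.01 and 3.75 CPM at 8 h, and 2.33, 1.62 and 1.86 CPM at 24 h, where every library lay under all others. WNT10A was scarcer, with 0.986, 0.744 and 0.761 CPM in untreated cells, 0.350, 0.575 and 0.707 CPM at 8 h, and 1.24, 1.85 and 1.22 CPM at 24 h, where every library lay above all others. From 8 h to 24 h the log2 fold change was −0.89 (FDR = 3.2e-04) for WNT10B and 1.41 (FDR = 3.6e-04) for WNT10A. Against untreated cells at 24 h WNT10A was higher by 0.80 (SE 0.25, FDR = 0.013), a call lost without TEPA 24 h replicate 2 (0.57, FDR = 0.089).

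The remaining ligands were WNT7B and WNT2B. WNT7B, the most abundant ligand by exon length, was not called at 8 h (log2 fold change −0.15, FDR = 0.15), though it was without untreated replicate 1 (−0.24, FDR = 0.012), and was lower at 24 h (−0.41, SE 0.083, FDR = 6.5e-04). WNT2B was at most 1.06 CPM in any library, and its log2 fold change was 1.05 (SE 0.29, FDR = 0.0070) at 8 h and 0.55 (FDR = 0.14) at 24 h.

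Summed per length, the ligand level was lower in every TEPA library than in every untreated one. The sum over all 19 ligands, in CPM per kb of exon, was 21.3 ± 0.55 (SD, n = 3) in untreated cells, 18.3 ± 0.38 at 8 h and 17.9 ± 0.35 at 24 h. Its makeup shifted between the times. WNT9A made up 16.8% of the sum in untreated cells, 10.2% at 8 h and 16.0% at 24 h, and WNT3 made up 14.4%, 15.1% and 21.7%. These sums and shares are descriptions, with no test.

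**Figure D2:**
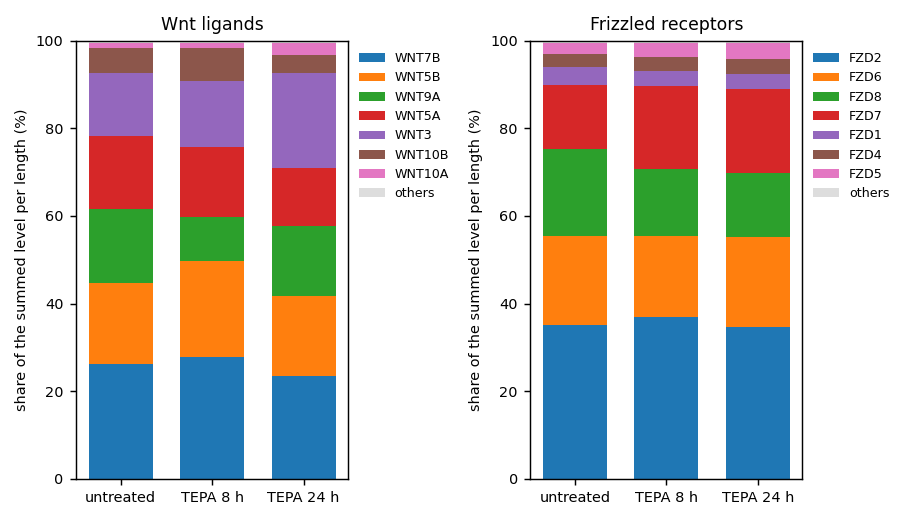
Share of the summed level per exon length (%) taken by each Wnt ligand (left) and each frizzled receptor (right), as the mean of 3 libraries in untreated cells, at 8 h and at 24 h of TEPA. Among ligands the WNT9A segment narrows from 16.8% to 10.2% at 8 h and the WNT3 segment widens to 21.7% at 24 h, and among receptors FZD8 goes from 19.9% to 14.6% and FZD7 from 14.6% to 19.3% at 24 h.

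The genes that handle the ligand before secretion changed at different times. PORCN, the acyltransferase that adds the lipid, measured 29.4, 31.3 and 28.7 CPM in untreated cells, 50.1, 50.2 and 52.5 CPM at 8 h, and 29.4, 30.0 and 30.1 CPM at 24 h. The 8 h libraries stood clear of all others, and the 24 h libraries lay within the untreated range. Its log2 fold change was 0.77 (SE 0.048, FDR = 7.7e-09) at 8 h and −0.001 (SE 0.049, FDR = 0.99) at 24 h, with no fixed sign there under other scalings. WLS, the carrier, was lower at 24 h (−0.28, SE 0.040, FDR = 2.2e-05). Its smaller difference at 8 h (−0.11, FDR = 0.036) was no longer called without untreated replicate 1 (−0.08, FDR = 0.12), untreated replicate 3, or TEPA 8 h replicate 1 or 3, or with the replicate number as a block (FDR = 0.062).

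Among the 8 tested frizzled receptors, 5 were lower and 1 higher at 8 h, and 4 were lower and 2 higher at 24 h, where all genes gave 24.5% and 25.2%, then 26.8% and 25.7%. FZD8 measured 77.6, 63.4 and 66.7 CPM in untreated cells, 45.8, 44.1 and 46.5 CPM at 8 h, and 45.9, 48.1 and 43.1 CPM at 24 h. Both TEPA groups lay below every untreated library and over one another. Its log2 fold change was −0.60 at both times (SE 0.064, FDR = 1.8e-06 at 8 h and 1.3e-06 at 24 h), and the 2 times differed by 0.01 (SE 0.065, FDR = 0.92). FZD1 had the same shape at a lower level, with 26.1, 22.9 and 23.2 CPM untreated, 15.7, 18.2 and 17.7 CPM at 8 h and 17.8, 18.2 and 17.6 CPM at 24 h. FZD2, the most abundant frizzled, was lower by a small step at 8 h (−0.16, FDR = 0.0086) and at 24 h (−0.17, FDR = 0.0041).

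FZD7, a receptor often studied in TNBC, was slightly higher: its libraries ran from 56.1 to 59.3 CPM untreated, from 61.7 to 66.3 CPM at 8 h and from 67.3 to 70.1 CPM at 24 h. The groups did not overlap. The log2 fold change was 0.15 (FDR = 0.0072) at 8 h and 0.25 (SE 0.042, FDR = 1.5e-04) at 24 h, with the 8 h call lost without untreated replicate 3 (0.13, FDR = 0.052) or TEPA 8 h replicate 3 (0.12, FDR = 0.054). FZD5 was higher at 24 h (0.40, SE 0.070, FDR = 1.7e-04) and was not called at 8 h (0.13, FDR = 0.14), and the difference between the times passed the test (0.27, FDR = 0.0039).

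FZD6 and FZD4 were lower at 8 h, by −0.36 (FDR = 8.6e-05) and −0.22 (FDR = 0.012) on the log2 scale. FZD4 was no longer called at 8 h without TEPA 8 h replicate 1 (−0.19, FDR = 0.053), and at 24 h it measured −0.03 (FDR = 0.73). For FZD6 the difference at 24 h (−0.14, FDR = 0.045) was lost without untreated replicate 1 (−0.08, FDR = 0.19), untreated replicate 3, or TEPA 24 h replicate 1 or 2, and with DESeq2 (FDR = 0.066). FZD3 was called at neither time (−0.03 and −0.10). Summed over all 10 frizzled genes, the level was 85.8 ± 2.2 CPM per kb in untreated cells, 73.3 ± 1.0 at 8 h and 77.1 ± 1.4 at 24 h (SD, n = 3 each).

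The co-receptor LRP5 and WNT9A had the largest drops of the tested members at 8 h, and their order rests on untreated replicate 1. LRP5 measured 434, 302 and 337 CPM in untreated cells, 165, 178 and 176 CPM at 8 h, and 287, 323 and 294 CPM at 24 h. The 8 h libraries lay far below all others, whereas the 24 h libraries overlapped the untreated ones, whose replicate 1 stood apart at the top. The log2 fold change at 8 h was −1.04 (SE 0.093, FDR = 2.9e-07), and it was −0.88 without untreated replicate 1, where WNT9A was −1.03. At 24 h it was −0.25 (FDR = 0.033), and this call did not hold without untreated replicate 1 (−0.09, FDR = 0.18), TEPA 24 h replicate 1 or TEPA 24 h replicate 3, with DESeq2 (FDR = 0.17), or with the replicate number as a block (FDR = 0.055). From 8 h to 24 h LRP5 rose by 0.80 (SE 0.093, FDR = 2.7e-06).

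LRP6, the other co-receptor, followed a shallower course, with 52.0, 50.2 and 52.0 CPM untreated, 45.2, 46.0 and 44.6 CPM at 8 h, and 56.1, 50.7 and 54.4 CPM at 24 h. It was lower at 8 h (−0.18, FDR = 0.0036) and was not called at 24 h (0.06, FDR = 0.26). The receptors of the β-catenin-independent branches did likewise: the orphan receptor kinase ROR1 was lower at 8 h by −0.19 (FDR = 0.0056) and the kinase-like receptor RYK by −0.23 (FDR = 6.8e-04), and at 24 h they measured 0.04 (FDR = 0.56) and −0.03 (FDR = 0.62). All 4 of these receptors were higher at 24 h than at 8 h, with log2 fold changes from 0.20 to 0.80, where 26% of all genes were called higher.

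DKK1, the secreted protein that blocks LRP5 and LRP6 and is itself a β-catenin target, was higher at 8 h and lower at 24 h. It measured 61.5, 79.6 and 74.8 CPM in untreated cells, 93.6, 86.1 and 87.9 CPM at 8 h, and 58.7, 55.3 and 55.8 CPM at 24 h. The 3 groups did not overlap. Its log2 fold change was 0.31 (SE 0.070, FDR = 0.0018) at 8 h and −0.35 (SE 0.071, FDR = 6.8e-04) at 24 h, a difference of −0.66 between the times (FDR = 1.2e-06). DKK3, a related protein, ran from 2.42 to 3.43 CPM and was called in no comparison.

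**Figure D3:**
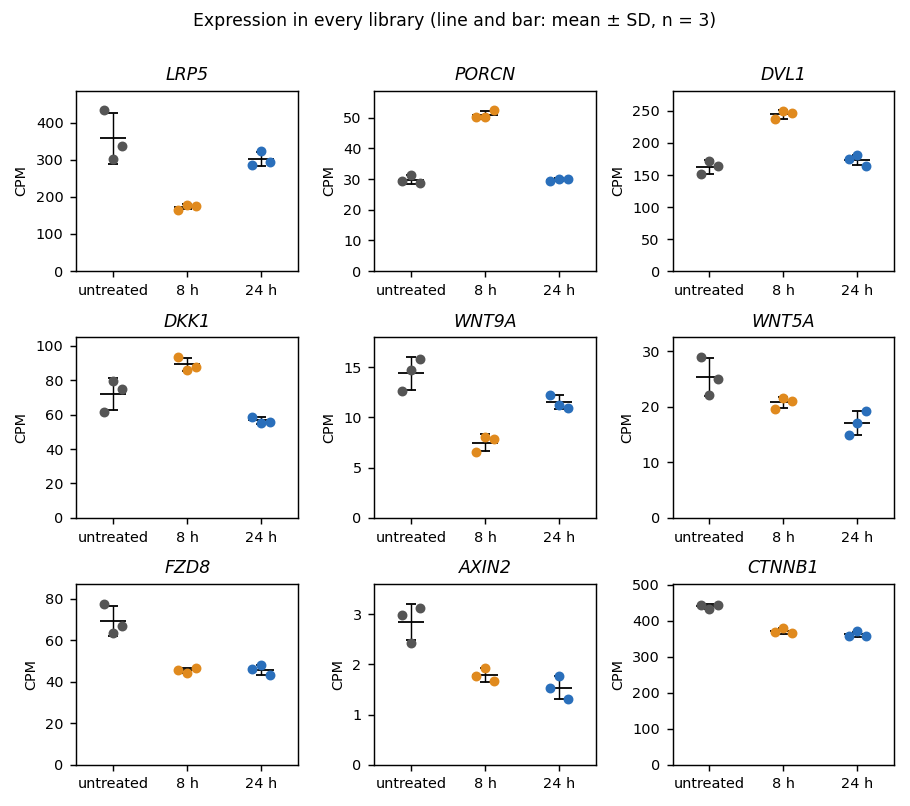
CPM of 9 members in every library (points), with the mean as a line and the SD as a bar, for untreated cells, 8 h and 24 h of TEPA (3 libraries each, axes from 0). LRP5 and WNT9A dip at 8 h and come back toward the untreated level at 24 h, PORCN and DVL1 peak at 8 h, and FZD8, AXIN2 and CTNNB1 lie below the untreated libraries at both times.

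The 3 dishevelled genes did not move together. DVL1 measured 151, 172 and 163 CPM in untreated cells, 237, 250.4 and 247 CPM at 8 h, and 175, 181 and 164 CPM at 24 h. The 8 h libraries were above all others and the remaining groups overlapped, with a log2 fold change of 0.59 (SE 0.048, FDR = 1.2e-07) at 8 h and 0.10 (FDR = 0.11) at 24 h. That value at 24 h passed the threshold without untreated replicate 2 (0.14, FDR = 0.025) or TEPA 24 h replicate 3 (0.13, FDR = 0.040). DVL2 was lower at 8 h (−0.23, FDR = 2.8e-04) and at 24 h (−0.37, SE 0.042, FDR = 2.1e-06). DVL3 was higher at 8 h (0.17, FDR = 0.0072), a call lost without TEPA 8 h replicate 2 (0.14, FDR = 0.051) or 3 (0.14, FDR = 0.052), and was level at 24 h (0.004, FDR = 0.95). The summed dishevelled level was 79.9 ± 1.8 CPM per kb untreated, 97.8 ± 2.1 at 8 h and 76.0 ± 3.3 at 24 h (SD, n = 3 each).

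In the destruction complex, AXIN2 changed most. AXIN2, a scaffold and a standard β-catenin target gene, was counted 112, 111 and 123 times without TEPA, then 71, 74 and 61 times at 8 h, then 78, 76 and 47 times at 24 h. In CPM these were 2.99, 2.43 and 3.12, then 1.77, 1.93 and 1.66, then 1.53, 1.76 and 1.31, so both TEPA groups lay below the untreated one and overlapped each other. The log2 fold change was −0.66 (SE 0.16, FDR = 0.0023) at 8 h and −0.88 (SE 0.16, FDR = 2.1e-04) at 24 h. AXIN1, the constitutive scaffold, was called at neither time (0.08, FDR = 0.14, and −0.10, FDR = 0.076). GSK3B, the kinase that marks β-catenin for removal, was not called at 8 h (−0.04) and was higher at 24 h (0.20, SE 0.039, FDR = 6.0e-04). APC was higher at 24 h (0.22, FDR = 7.6e-04). At 8 h it was 0.12 (FDR = 0.039), which did not hold with DESeq2 (FDR = 0.081) or when any library but untreated replicate 3 was left out (without untreated replicate 1, 0.08 and FDR = 0.16).

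CTNNB1, which encodes β-catenin itself, measured 445, 432 and 444 CPM in untreated cells, 368, 380.5 and 365 CPM at 8 h, and 357, 371 and 359 CPM at 24 h. Both TEPA groups lay below the untreated libraries. The log2 fold change was −0.25 (SE 0.034, FDR = 2.4e-05) at 8 h and −0.28 (SE 0.034, FDR = 5.1e-06) at 24 h, that is 0.843-fold and 0.823-fold of the untreated level, and the times differed by −0.03 (FDR = 0.41). RNA does not measure the amount or the location of the protein, through which the pathway is mainly controlled. The study measured both by immunofluorescence in this line. It reports less β-catenin after TEPA and a lower ratio of nuclear to cytoplasmic β-catenin.

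Of the 4 TCF/LEF factors, which bind DNA and recruit β-catenin, TCF7L2 was called and the others were not. TCF7L2 measured 20.6, 20.3 and 20.4 CPM in untreated cells, 25.2, 25.4 and 26.8 CPM at 8 h, and 21.0, 19.5 and 20.1 CPM at 24 h. The 8 h libraries stood above the rest, with a log2 fold change of 0.33 (SE 0.054, FDR = 1.1e-04) at 8 h and −0.02 (FDR = 0.83) at 24 h. LEF1 was −0.19 (FDR = 0.070) at 8 h and −0.09 (FDR = 0.37) at 24 h, and passed the threshold at both without untreated replicate 1 (−0.28, FDR = 0.0043, and −0.18, FDR = 0.041). TCF7 and TCF7L1 were between 3.01 and 4.91 CPM in every library, and TCF7L1 at 24 h passed the threshold when TEPA 24 h replicate 3 was left out (−0.31, FDR = 0.045).

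Both TEPA times were set against the same 3 untreated libraries, and the direct comparison of 24 h with 8 h is the test of whether the times differed. In it 14 members had all 24 h libraries below and 13 had them all above the 8 h ones, beside 32.4% and 29.6% of all genes. By the test 12 members were lower and 11 higher at 24 h, beside 28.8% and 26% of all genes, so 63.9% of the tested members and 54.8% of all genes were called. Beyond a log2 fold change of 0.5, 3 members were lower (WNT10B, PORCN and DKK1) and 3 higher (WNT10A, LRP5 and WNT9A), beside 10.8% and 10.4% of all genes. All 3 dishevelled genes and both secretion genes were lower at 24 h than at 8 h, and both co-receptors, ROR1 and RYK were higher. CTNNB1, AXIN2, FZD1, FZD2 and FZD8, each lower than untreated at both times, were not called between the times.

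The study's text names WNT5A, WNT7B, WNT9A, WNT10B, FZD1, FZD8 and AXIN2 from these libraries as downregulated by TEPA, so the direction of these genes here is not independent evidence. Its supplement lists WNT9A, FZD1, FZD8 and AXIN2 under 8 h and WNT5A, WNT7B and WNT10B under 24 h. Among these 7 genes, 5 were lower at 8 h and all 7 at 24 h, so they weigh on the counts of lower members given above. They weigh on the ligand and frizzled counts and sums as well. WNT7B, WNT9A, WNT5A and WNT10B took 26.3%, 16.8%, 16.7% and 5.56% of the ligand sum in untreated cells. FZD8 and FZD1 took 19.9% and 4.06% of the frizzled sum.

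Among the genes that set how long frizzled receptors stay on the surface, LGR5, a scarce gene here, had the widest swing. R-spondins act through LGR receptors, and RNF43 and ZNRF3 are the ubiquitin ligases that remove frizzled proteins. Of 9 genes in this list 5 were tested: 3 were lower at 8 h, and 4 were higher and 1 lower at 24 h, in a background where 49.6% and 52.5% of all genes were called. By direction, 24.5% of all genes were lower and 25.2% higher at 8 h, and 26.8% and 25.7% at 24 h. Of the 4 higher at 24 h, 1 was close to the limit of 3 counts, at a mean of 0.131 CPM in untreated cells and 0.321 CPM at 24 h. LGR5, a stem cell receptor and β-catenin target, had 5.63, 2.52 and 3.73 CPM in untreated cells, 1.40, 1.86 and 1.20 CPM at 8 h, and 11.8, 13.0 and 13.1 CPM at 24 h. The 3 groups did not overlap, and the log2 fold change was −1.39 (SE 0.24, FDR = 2.0e-04) at 8 h and 1.69 (SE 0.18, FDR = 1.5e-06) at 24 h. RNF43 had 1.87, 1.38 and 1.65 CPM in untreated cells, 1.07, 1.33 and 1.25 CPM at 8 h, and 3.20, 4.26 and 3.75 CPM at 24 h, and its log2 fold change was 1.20 (FDR = 1.1e-05) at 24 h. The better expressed genes of the list moved less. LGR4 was lower at 8 h (−0.36, FDR = 1.6e-05) and higher at 24 h (0.14, FDR = 0.023), and ZNRF3 was lower at both times (−0.20, FDR = 0.0054, and −0.41, FDR = 8.9e-06).

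The list of 24 β-catenin target genes did not shift as a block. Of its 19 tested genes, 5 of them members already described, 5 were lower and 7 higher at 8 h, and 7 were lower and 5 higher at 24 h, with medians of −0.03 and 0.01 on the log2 scale. Over all genes 24.5% were lower and 25.2% higher at 8 h, and 26.8% and 25.7% at 24 h, so these counts lay near or somewhat above the background. By size the calls at 8 h were led by LGR5, by NKD1, a feedback inhibitor of dishevelled (0.92, SE 0.17, FDR = 2.6e-04), and by AXIN2. At 24 h they were led by LGR5, RNF43 and AXIN2. The targets AXIN2 and LGR5 thus lay on opposite sides of the untreated level at 24 h.

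**Figure D4:**
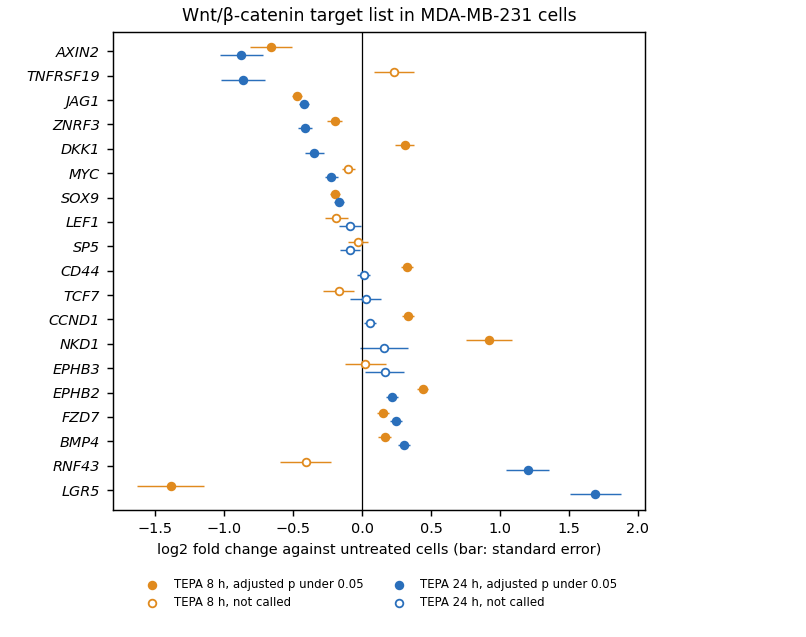
Log2 fold change of the 19 tested β-catenin target genes at 8 h (orange) and 24 h (blue) of TEPA against untreated cells, with genes in rows, bars for the standard error and filled points for an FDR under 0.05. The points spread to both sides of 0 at both times, from AXIN2 at −0.88 to LGR5 at 1.69 at 24 h.

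The lists of β-catenin turnover genes and nuclear cofactors were likewise mixed. Counts in all the other fixed lists are to be read against the same shares of all genes. These were 24.5% lower and 25.2% higher at 8 h, and 26.8% and 25.7% at 24 h. Of 17 β-catenin turnover genes, all tested, 4 were lower and 5 higher at 8 h, and 6 lower and 4 higher at 24 h. APC2, an APC relative, was higher at both times (0.45, FDR = 9.9e-04, and 0.98, FDR = 3.1e-07). FRAT1, which binds GSK3 and keeps it from β-catenin, was lower at 8 h (−0.74, FDR = 0.0032) and was not called at 24 h (0.40, FDR = 0.053). Of 16 nuclear cofactors, 6 were lower and 6 higher at 8 h, and 5 lower and 8 higher at 24 h. CTNNBIP1, an inhibitor of the β-catenin and TCF complex, was lower at 8 h (−0.50, FDR = 5.2e-06) and higher at 24 h (0.19, FDR = 0.0099). The co-repressor CTBP1 was at −0.54 (FDR = 5.5e-09) at 24 h.

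In the planar polarity list 14 of 19 genes were tested: 3 were lower and 3 higher at 8 h, and 6 lower and 1 higher at 24 h, beside 24.5% and 25.2% of all genes at 8 h and 26.8% and 25.7% at 24 h. DAAM2 had the largest change at 24 h (−1.10, FDR = 0.0022), from a mean of 1.70 CPM in untreated cells to 0.777 CPM. The cadherin CELSR3 was higher at both times (0.63, FDR = 2.0e-06, and 0.94, FDR = 1.6e-08), and the receptor PTK7 was lower at 24 h (−0.59, FDR = 4.6e-06). The polarity protein SCRIB was higher at 8 h (0.30, FDR = 3.5e-05) and lower at 24 h (−0.28, FDR = 4.4e-05). Of 17 modulators on a list of SFRP, WIF and related proteins, 3 were expressed enough to test. None of these 3 was an SFRP or WIF gene. TRABD2A, a membrane protease that acts on Wnt ligands, was the 1 called, lower at 8 h (−0.19, FDR = 0.0031) and higher at 24 h (0.36, FDR = 8.8e-06).

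The labelled line was checked against marker genes. VIM ran from 3242 to 4435 CPM over all libraries, PGR had no count and ESR1 was at most 0.240 CPM, and ERBB2 was between 51.9 and 87.1 CPM. Of the epithelial genes, KRT8 ran from 328 to 438 CPM and KRT18 from 246 to 308 CPM, whereas EPCAM was between 0.834 and 1.86 CPM. The luminal factors GATA3 and FOXA1 ran from 10.2 to 14.8 CPM and from 2.90 to 3.67 CPM. Markers of other cells moved with the groups. The 5 fibroblast genes summed to between 42.5 and 55.4 CPM untreated and 57.2 and 61.8 CPM at 8 h. At 24 h the sum ran from 108.5 to 117.8 CPM. It came mainly from PDGFRB and COL1A1, 2 of the 5, while DCN, LUM and PDGFRA were at or near 0. These 2 genes did not move together. Against untreated cells at 8 h COL1A1 was higher (log2 fold change 1.25) and PDGFRB lower (−0.33). At 24 h both were higher than untreated (0.40 for COL1A1 and 1.47 for PDGFRB). From 8 h to 24 h PDGFRB rose (1.80) and COL1A1 fell (−0.84). Of 3 endothelial genes only PECAM1 was tested (sums of 2.98 to 4.19, 0.925 to 1.33 and 7.22 to 8.98 CPM), and VWF and CDH5 were at or near 0. Of 4 immune genes only CD14 was tested (2.89 to 5.17, 0.601 to 0.925 and 3.75 to 4.84 CPM), and CD3E was at 0. The part of these genes in the results above was not tested.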

How the data were processed

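RNA from MDA-MB-231 cells was sequenced as stranded, paired-end libraries in 3 groups of 3. Quality was examined with FastQC, HISAT2 served as the aligner against hg38, and featureCounts assigned read pairs to the exons of each gene name, strand-aware, on the Ensembl 103 annotation. The deposited values are the raw counts that the authors obtained in this way, with no normalization, and no column was left out.

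Genes passed edgeR's (4.0.16, R 4.3.3) filterByExpr at a minimum of 10 counts, leaving 16556 genes with 99.95% of all counts. Library sizes were scaled with TMM factors of 0.978 to 1.039, and a single quasi-likelihood model by group covered all 9 libraries (biological coefficient of variation 0.0481). P-values were turned into Benjamini-Hochberg false discovery rates (FDR, the adjusted p) across every gene in the model, and a gene was called below 0.05. With 3 libraries against 3, a 2-sided permutation test cannot go below 0.1. Levels per length used summed exon lengths of GENCODE 44 on hg38, found for 38754 gene names that held 99.24% of counts. Members and lists were chosen with earlier results of these data known. Every tested member could be named, and from the added lists the text draws on the 3 largest called changes per comparison at a mean of 1 CPM or more. Simulated counts were used to check the procedure. In these, few genes were changed, equally up and down and in the 8 h group alone. They therefore do not cover libraries such as these, where 49.6% of all genes were called at 8 h. The alternatives were 2 other scalings (RLE, upper quartile), DESeq2 1.42.0, other count filters, a log2 limit of 0.5, fits of 2 groups only, the replicate number as a blocking term, and each library omitted once.

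Same-numbered libraries did not deviate together (correlations from −0.0801 to 0.0383), so the numbers were not taken as pairs.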

Additional observations from a re-analysis of the deposited data

Results flagged for a closer look

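For 23 of the 36 tested members the level at 24 h of TEPA differed from that at 8 h. The 2 times were compared directly in edgeR's quasi-likelihood fit, with a false discovery rate (FDR) under 0.05. The same comparison called 54.8% of all genes. Values are log2 fold changes of 24 h against 8 h. Among ligands they were −0.89 for WNT10B, −0.30 for WNT5B, −0.29 for WNT5A, −0.26 for WNT7B, 0.49 for WNT3, 0.62 for WNT9A and 1.41 for WNT10A. In the secretion step they were −0.77 for PORCN and −0.18 for WLS. Among receptors they were 0.19 for FZD4, 0.21 for FZD6, 0.27 for FZD5, 0.80 for LRP5, 0.25 for LRP6, 0.23 for ROR1 and 0.20 for RYK. Among the inhibitor, dishevelled and destruction complex genes they were −0.66 for DKK1, −0.50 for DVL1, −0.14 for DVL2, −0.16 for DVL3, −0.18 for AXIN1 and 0.23 for GSK3B, and TCF7L2 measured −0.35.

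Calls that rested on 1 library were those of WNT5A (−0.20, FDR = 0.12 without TEPA 24 h replicate 1, and also lost without TEPA 8 h replicate 2 or 3), WNT7B (−0.19, FDR = 0.079 without TEPA 24 h replicate 3, and also lost without TEPA 8 h replicate 2 or 3), FZD4 (0.15, FDR = 0.10 without TEPA 24 h replicate 2, and also lost without TEPA 8 h replicate 1), DVL2 (−0.12, FDR = 0.053 without TEPA 24 h replicate 1) and DVL3 (−0.13, FDR = 0.050 without TEPA 8 h replicate 3). All other calls among the 23 held when any 1 library of the 2 times was left out.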

How the results depend on the processing

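Asking for a log2 fold change beyond 0.5 left 4 members lower and 3 higher at 8 h, 4 lower and 1 higher at 24 h, and 3 lower and 3 higher at 24 h against 8 h, and left 1270 and 1673, 1400 and 1695, and 1789 and 1716 of all genes. With the replicate number as a block, 14 members were lower and 8 higher at 8 h, and 14 lower and 6 higher at 24 h, with WLS at 8 h and LRP5 at 24 h the calls lost. The block called 3821 of all 16556 genes lower and 3958 higher at 8 h, and 4268 lower and 4087 higher at 24 h. DESeq2 gave 15 lower and 7 higher of 36 members at 8 h, and 13 lower and 6 higher of 37 at 24 h. Of all genes it called 3866 lower and 3620 higher of 18995 at 8 h. At 24 h these were 4039 and 3891 of 20101. Leaving out 1 library gave 12 to 16 lower and 5 to 7 higher members at 8 h, the lowest, 5, without TEPA 8 h replicate 3, then 13 to 15 lower and 5 to 7 higher at 24 h, and 9 to 12 lower and 10 to 12 higher between the times. For all genes the ranges were 3630 to 4077 lower and 3497 to 3982 higher at 8 h. They were 3859 to 4498 and 3658 to 4240 at 24 h, and 4187 to 4494 and 3838 to 4077 between the times. With the longest transcript, the median untreated level was 17.52 TPM instead of 16. Changes of sign came from log2 fold changes near 0 that no test called. PORCN at 24 h was 0.00623 with RLE factors, 0.0254 with upper-quartile factors, 0.00231 with DESeq2, 0.00947 with 10 counts in every library, 0.00068 in a 2-group fit, and −0.030 to 0.0354 with 1 library left out. TCF7L2 at 24 h was 0.0107 with upper-quartile factors and −0.048 to 0.00809 with 1 library left out, and FZD2 between the times was 0.00997 in a 2-group fit and −0.0325 to 0.0185. Ranges with 1 library left out were −0.0569 to 0.0671 for WNT5B and −0.0956 to 0.0584 for FZD3 at 8 h. At 24 h they were −0.0165 to 0.0648 for ROR1, −0.0777 to 0.00242 for FZD4, −0.0127 to 0.0249 for DVL3 and −0.0477 to 0.114 for TCF7. Between the times they were −0.00285 to 0.103 for FZD1, −0.217 to 0.037 for DKK3, −0.0269 to 0.0487 for FZD8 and −0.125 to 0.0267 for FZD3. The cause was not tested. No scaling moved the median of all genes by 0.1. Depth limits WNT2B, WNT10A, WNT10B and AXIN2, which had few counts.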
